A study of Mus musculus with 3 samples.

Results

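The acrosome is the cap-shaped secretory vesicle on the sperm head. It is built from Golgi vesicles in round spermatids, spreads over the nucleus as the head elongates, and releases its enzymes and exposes its membrane proteins at fertilisation. The 10 genes described here, chosen by symbol from the 55450 genes in the files, encode proteins of its contents, its membranes, its attachment to the nucleus and the fusion of sperm and egg. Acr encodes proacrosin, the main serine protease of the acrosome, and Acrbp the protein that binds proacrosin in the granule. Acrv1 (SP-10) and the lysozyme-like Spaca3 (SLLP1) are acrosomal proteins, and Zpbp and Zpbp2 are zona pellucida binding proteins of the acrosomal matrix. Spaca1 is a membrane protein of the acrosome needed for its shape, and Spaca4 is a small lipid-anchored surface protein. Dpy19l2 sits in the inner nuclear membrane and holds the acrosome to the nucleus. Izumo1 is the sperm protein that binds the egg receptor Juno and is required for fusion. All 10 symbols were found in the files, each once.

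The genes were followed across germ stages in 3 mouse testis libraries of single cells, in which each captured RNA molecule is counted once by its tag (a UMI) near its 3' end. Every group had received busulfan, a DNA-alkylating agent toxic to proliferating germ cells. The PBS library came from animals injected with saline, the EXO library from animals injected with blood exosomes (small membrane vesicles) of wild-type mice, and the dEXO library from animals injected with blood exosomes of mice whose gut microbiota was imbalanced. There was 1 library per group, and the sources used here give neither the number of animals behind it nor strain or age. Differences between libraries therefore have no replicate check and no p-value, and every 95% interval below covers counting error only.

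The libraries held 91787154 to 97253862 UMIs in 5514 (PBS), 10228 (EXO) and 9760 (dEXO) barcodes, and each pair shared 19 barcodes. After filtering, 5267, 9860 and 8947 cells remained. Germ cells were clustered without the 10 genes and without 41 other acrosome genes, so that the stages do not rest on the genes described, and were named from fixed markers. The libraries differed in how many germ cells they held. PBS, EXO and dEXO had 98, 229 and 381 spermatogonia, 17, 194 and 339 early spermatocytes, 19, 268 and 517 late spermatocytes, 66, 459 and 743 round spermatids, and 8, 20 and 51 elongating spermatids. Levels in groups under 50 cells (PBS spermatocytes and elongating spermatids, EXO elongating spermatids) are given for description and enter no comparison between libraries. The median round spermatid had 15631 UMIs in PBS but 2565 in EXO and 2455 in dEXO. The median elongating spermatid had 22355, 1596.5 and 1826 UMIs, and the elongating cells summed to 275713, 311105 and 653615 UMIs. Levels below are sums over cells, so in EXO and dEXO spermatids they rest mainly on the deeper cells.

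In the GRCm38 annotation used (GENCODE M21), Acr lies on chromosome 15 (89568326 to 89574585), Acrbp on 6 (125049689 to 125063267), Acrv1 on 9 (36693220 to 36698843), Spaca1 on 4 (34024874 to 34050191) and Spaca3 on 11 (80858365 to 80867814). Zpbp and Zpbp2 also lie on chromosome 11 (11279626 to 11462408 and 98551097 to 98558665), Dpy19l2 on 9 (24557047 to 24696293), and Izumo1 and Spaca4 on 7 (45621811 to 45628823 and 45725107 to 45725813). Exons of 4 of the 10 are touched by another annotated gene. On the opposite strand these are 4930557K07Rik at Acrbp, Fam83e at Spaca4 and Spata48 at Zpbp. On the same strand they are Gm44597 at Acrbp and Rasip1 at Izumo1. The sources used here do not say how the counting treated such overlaps, so the levels of these 4 genes carry that uncertainty.

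Promoter windows were searched because the members split in timing, as described below. The window was the 250 bases before the RefSeq gene start (GRCm38.p6), which the reference gave for 9 of the 10 genes, Acr not among them. The letters searched on both strands were the cAMP response element (CRE) half-site TGACGT, the full CRE TGACGTCA, the X-box half-site GTTGCC, and the MYB element CAACTG, counted also with thymine as the first base and with guanine as the fifth. Izumo1, whose level rises in spermatids, held the full CRE 96 bases before its start, which 1.62% of 27025 promoters hold. Zpbp2, highest in late spermatocytes by the mean of the 3 libraries, held a MYB element 59 bases before its start. Of the promoters, 23.7% hold that element. Acrbp, also highest in late spermatocytes by the mean of the 3 libraries, held a CRE half-site 18 bases and an X-box half-site 199 bases before its start. These are held by 6.56% and 10.5% of promoters. The Acrbp window lies wholly within annotated exons and is not printed. The full CRE of Izumo1 is its own reverse complement and holds the half-site on both strands. The other 6 windows held none of these letters, which says nothing of the factors themselves. They are those of Acrv1, Spaca1, Spaca3 and Spaca4, which rise in spermatids like Izumo1, and of Zpbp and Dpy19l2. Whether any of these letters bears on timing was not tested. The windows of Izumo1, Zpbp2 and Dpy19l2, which carry no annotated exon, are shown with the matches in capitals, Dpy19l2 standing for the windows with none; they are chr7:45621561-45621810 (+ strand), chr11:98550847-98551096 (+ strand) and chr9:24696294-24696543 (- strand).
Izumo1: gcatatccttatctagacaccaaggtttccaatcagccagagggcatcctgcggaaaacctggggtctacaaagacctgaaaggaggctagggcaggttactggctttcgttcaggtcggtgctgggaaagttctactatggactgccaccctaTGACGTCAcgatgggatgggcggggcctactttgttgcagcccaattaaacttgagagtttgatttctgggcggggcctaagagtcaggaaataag
Zpbp2: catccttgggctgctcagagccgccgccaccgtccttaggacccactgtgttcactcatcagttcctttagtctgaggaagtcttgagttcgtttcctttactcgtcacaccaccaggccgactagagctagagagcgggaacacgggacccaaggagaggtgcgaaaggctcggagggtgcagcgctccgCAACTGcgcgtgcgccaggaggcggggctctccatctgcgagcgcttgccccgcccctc
Dpy19l2: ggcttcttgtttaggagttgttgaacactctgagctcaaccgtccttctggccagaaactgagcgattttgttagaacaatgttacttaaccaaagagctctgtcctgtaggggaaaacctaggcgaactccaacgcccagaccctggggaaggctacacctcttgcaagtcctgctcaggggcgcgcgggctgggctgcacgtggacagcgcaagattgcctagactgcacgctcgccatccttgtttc

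The 10 genes were transcripts of late spermatocytes and spermatids. Levels are given as CPM, the UMIs of a gene per 1000000 UMIs of the same library and cell class, and are not compared between genes, since reads near the 3' end carry no length correction. Summed over the 10 genes, round spermatids held 5244 CPM in PBS, 5115 in EXO and 4869 in dEXO. Late spermatocytes held 1247, 2524 and 2270 CPM, and elongating spermatids 5495, 5911 and 4210 CPM. Spermatogonia held 102, 162 and 158 CPM, and early spermatocytes 26.2, 106 and 202 CPM. These levels lay within the range of cells outside the germ line or above it, as described below. Named germ cells carried 91.9%, 94.3% and 93.3% of all UMIs of the 10 genes in PBS, EXO and dEXO. In the libraries as wholes the summed level was 349, 1128 and 1667 CPM, in the same order as the numbers of spermatids.

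Within that window the genes came in 2 waves. In EXO and dEXO late spermatocytes Acr, Acrbp, Zpbp, Zpbp2 and Dpy19l2 stood within 1.23-fold below to 1.57-fold above their round spermatid level, while Acrv1, Spaca1, Spaca3, Spaca4 and Izumo1 were 7.22-fold to 18.2-fold lower there than in round spermatids. In the 19 PBS late spermatocytes Zpbp was 2.07-fold and Acr 1.57-fold below the round level. The division was made after the values were seen. The first 5 genes gave 87.9% of the UMIs of all 10 in EXO late spermatocytes (95% interval 87.3% to 88.5%) and 85.9% in dEXO (85.5% to 86.3%). They gave 37.3% and 38.5% in round spermatids, and 17.1% and 21.7% in elongating spermatids. In PBS the shares were 98.9% of 1148 UMIs from 19 late spermatocytes, 32.2% in round and 17.9% in elongating spermatids, so the 3 libraries gave the same order.

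**Figure D1:**
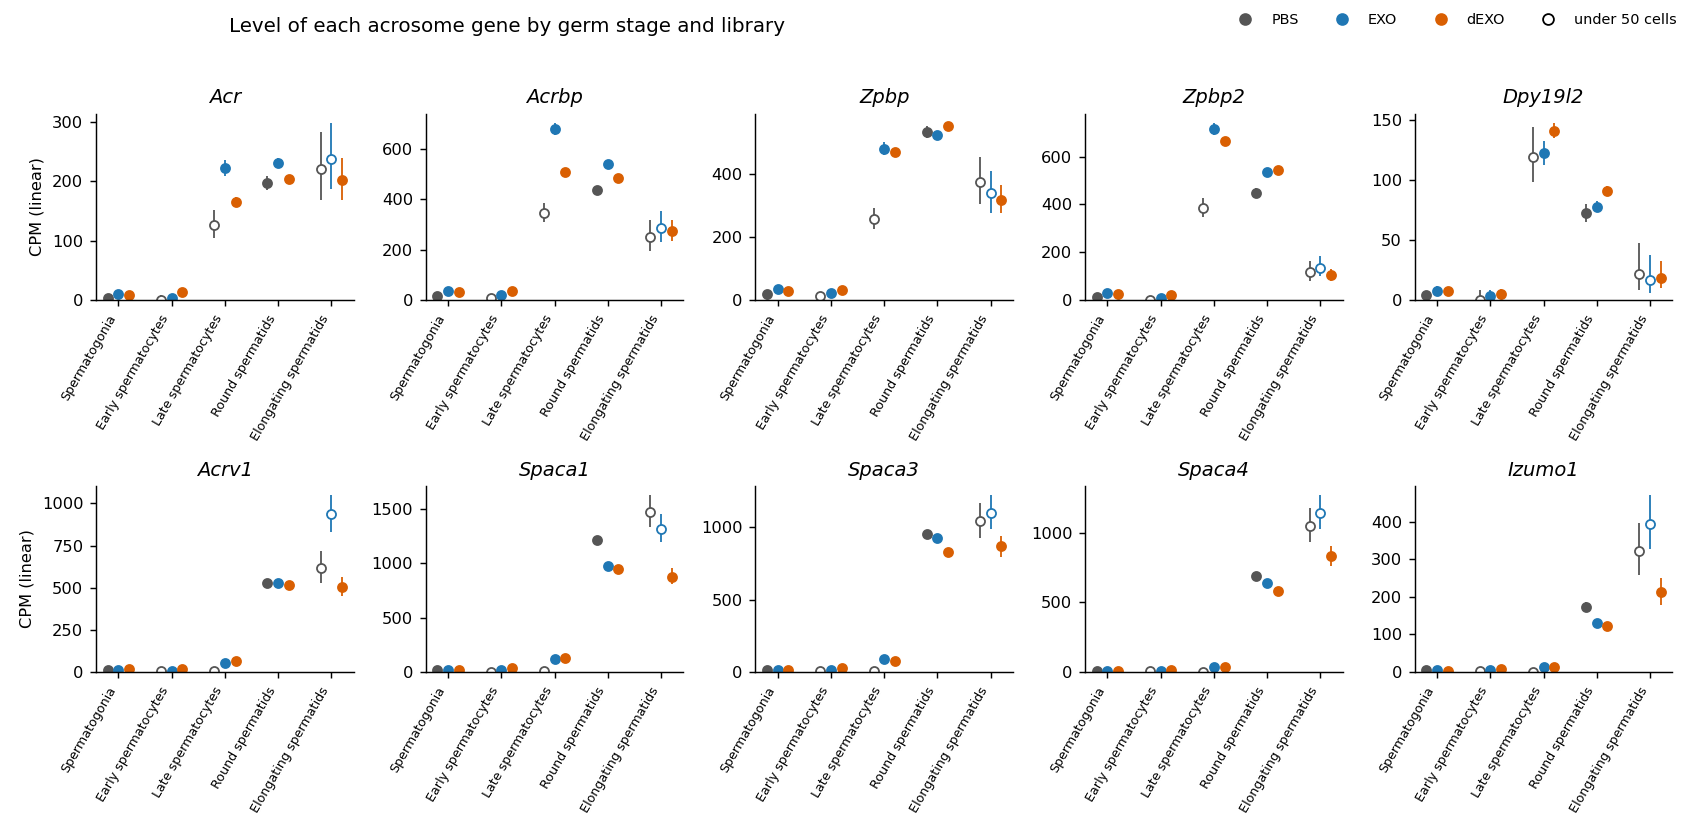
Level of each acrosome gene in CPM (linear axis from 0) by germ stage, with 1 point per library and a bar for the exact 95% Poisson interval; open points are groups under 50 cells. The upper 5 genes are already high in late spermatocytes (Zpbp2 at 716 CPM in EXO), and the lower 5 stay near the axis until round spermatids (Spaca4 at 35.3 CPM in EXO late spermatocytes and 643 in round spermatids).

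The protease and its partner appeared together. Acr stood at 126 CPM in PBS, 222 in EXO and 166 in dEXO late spermatocytes, at 197, 232 and 204 CPM in round spermatids, and at 221, 238 and 202 CPM in elongating spermatids. Its level in late spermatocytes was thus 0.06 (EXO) and 0.29 (dEXO) lower than in round spermatids on the log2 scale, with 95% intervals of -0.16 to 0.04 and -0.37 to -0.22, and the intervals of round and elongating spermatids overlapped in all 3 libraries. Acrbp stood at 345, 680 and 509 CPM in late spermatocytes, 437, 541 and 487 CPM in round spermatids, and 250, 286 and 274 CPM in elongating spermatids. Its round level was 1.75-fold, 1.89-fold and 1.78-fold the elongating level in PBS, EXO and dEXO. The intervals of these 3 ratios for Acrbp left out 0, and those for Acr (-0.16, -0.04 and 0.01 on the log2 scale) did not.

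The 2 zona pellucida binding proteins diverged after meiosis. Zpbp stood at 256, 479 and 468 CPM in late spermatocytes of PBS, EXO and dEXO, 532, 524 and 550 CPM in round spermatids, and 374, 338 and 317 CPM in elongating spermatids. Zpbp2 stood at 386, 716 and 665 CPM, then 449, 536 and 543 CPM, then 116, 135 and 103 CPM. Zpbp2 was 0.42 (EXO) and 0.29 (dEXO) higher in late spermatocytes than in round spermatids on the log2 scale, where Zpbp was 0.13 and 0.23 lower. From round to elongating spermatids Zpbp2 was 3.87-fold, 3.97-fold and 5.30-fold lower and Zpbp 1.42-fold, 1.55-fold and 1.74-fold lower, and the intervals of the 2 genes' ratios did not overlap in any library.

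Dpy19l2, the nuclear anchor of the acrosome, was highest in late spermatocytes and lower at each later stage. Its level was 119 CPM (98.2 to 144) in PBS, 122 (112 to 133) in EXO and 141 (135 to 148) in dEXO late spermatocytes, 72.3, 77.9 and 90.8 CPM in round spermatids, and 21.8, 16.1 and 18.4 CPM in elongating spermatids, the last from 6, 5 and 12 UMIs. Late spermatocytes exceeded round spermatids by 0.72, 0.65 and 0.64 on the log2 scale, with all 3 intervals above 0. From round to elongating spermatids Dpy19l2 was 3.32-fold (PBS), 4.85-fold (EXO) and 4.94-fold (dEXO) lower, and the interval bounds nearest to no change were 1.51-fold, 2.07-fold and 2.82-fold.

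Of the later genes, Acrv1 stood at 3.26 CPM in PBS (3 UMIs), 50.3 in EXO and 65.8 in dEXO late spermatocytes, and at 530, 526 and 516 CPM in round spermatids. These 3 round values lay within 3 overlapping intervals. Deep cells weigh most in them, and Acrv1 stood higher in the shallow round cluster g0 described below. In elongating spermatids Acrv1 stood at 617 CPM (527 to 717), 935 (831 to 1049) and 503 (450 to 561) in PBS, EXO and dEXO. Spaca3 stood at 3.26, 89.6 and 74.1 CPM in late spermatocytes and at 952, 926 and 827 CPM in round spermatids. It reached 1041, 1099 and 867 CPM in elongating spermatids, 1.09-fold, 1.19-fold and 1.05-fold its round level.

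Among the membrane and surface proteins, Spaca1 stood at 6.52, 117 and 131 CPM in late spermatocytes of PBS, EXO and dEXO, 1213, 980 and 948 CPM in round spermatids, and 1480, 1321 and 880 CPM in elongating spermatids. Spaca4 stood at 1.09 (1 UMI), 35.3 and 37.6 CPM, then 688, 643 and 581 CPM, then 1052, 1148 and 834 CPM, and so was higher in elongating than in round spermatids in all 3 libraries. Izumo1 had no UMI in the 19 PBS late spermatocytes, which allows up to 3.26 CPM at 3 counts, and stood at 11.8 and 11.9 CPM in EXO and dEXO. It reached 174, 129 and 124 CPM in round spermatids and 323, 395 and 213 CPM in elongating spermatids. Izumo1 rose from round to elongating spermatids by 1.85-fold, 3.06-fold and 1.72-fold, with intervals that left out no change in each library. By the mean of the 3 libraries, 7 of the 10 genes were highest in spermatids, and Acrbp, Zpbp2 and Dpy19l2 were highest in late spermatocytes.

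Cluster by cluster, the later genes first rose in g7, the last cluster named as spermatocytes. The clusters were ordered by markers outside the 10 genes. Piwil1, a piRNA-pathway gene of pachytene cells, stood at 1516 CPM in cluster g11, 362 in g2, 36.2 in g7 and 10.9 in g3 over all 3 libraries. Tnp1, the transition protein of late spermatids, stood at 38.7 CPM in g3, 263 in g6, 822 in g9 and 9177 in g14. In g2 the 5 later genes stood at 2.22 to 11.6 CPM in EXO and 3.03 to 11.3 CPM in dEXO, below their own levels in stromal-like cells of the same library. In g7, a cluster named late spermatocytes with Ccna1 and Aurka among its leading genes, they had risen by 2.91 (Izumo1, dEXO) to 5.02 (Acrv1, EXO) on the log2 scale. The marker score of g7 was 1.18 for late spermatocytes (7 of 12 markers raised) and 0.82 for round spermatids (4 of 12 raised). Whether the rise came before the round stage was not tested. The next step, from g7 to the first round cluster g3, added 1.27 (Spaca1, dEXO) to 2.30 (Spaca4, EXO), and every one of the 5 rose again from g3 to g6 and from g6 to g9 in EXO and dEXO.

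The first wave moved earlier along the same clusters. From g11 to g2 Zpbp2 rose by 2.52 in EXO and 2.44 in dEXO on the log2 scale, Zpbp by 1.48 and 1.80, Acrbp by 1.63 and 1.51, and Acr by 1.23 and 1.10. Dpy19l2 was already at 124 CPM (EXO) and 84.4 CPM (dEXO) in g11. It fell in each later step from g3 on, by 0.58 and 0.32 to g6 and by 0.51 and 0.60 to g9. Zpbp2 fell by 0.36 and 0.24 from g3 to g6 and by 0.90 and 0.53 from g6 to g9. Cluster g13, a Piwil1-rich late spermatocyte cluster with 12698 CPM of the nuclear RNA Malat1, was left out of this order. Its first-wave genes stood at 70.7 (Acr) to 260.5 CPM (Zpbp2) over all libraries and its later genes at 5.89 (Izumo1) to 36.5 CPM (Spaca3). The shallow round clusters g0 and g10, described below, were also left out, so the steps do not cover all round spermatids. In EXO and dEXO, Dpy19l2 stood higher in both than in g6.

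**Figure D2:**
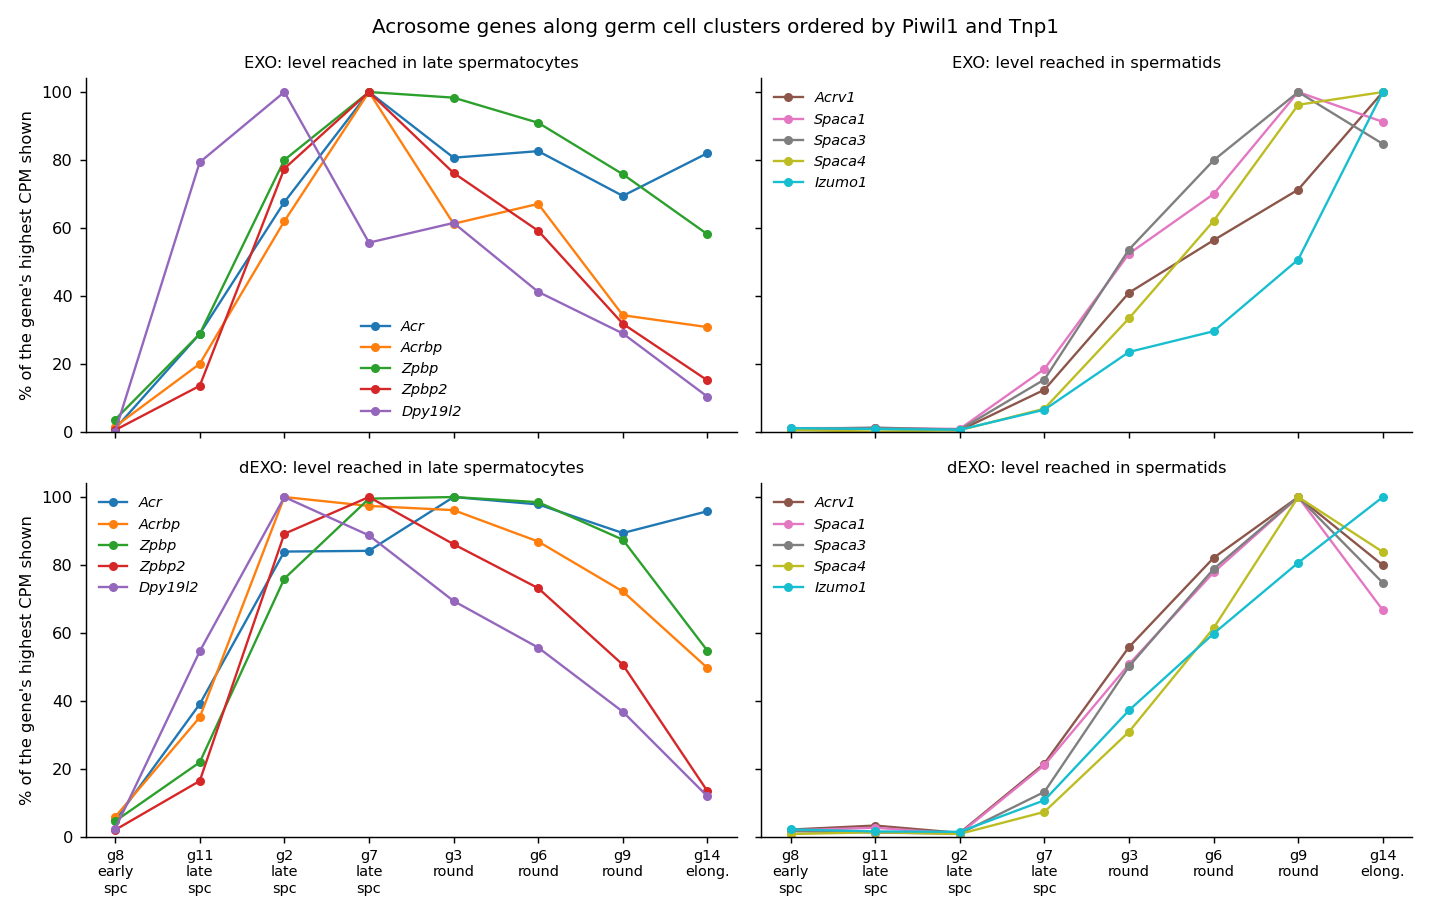
Each gene's CPM as a percentage of its highest among the 8 germ clusters drawn (vertical axis, linear), for EXO (top) and dEXO (bottom), with clusters ordered by Piwil1 and Tnp1 and lines joining them. The left panels show the 5 genes that were high by clusters g2 and g7 of late spermatocytes, and the right panels the 5 that left the baseline in g7 and climbed to g9 or g14.

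Genes of both waves were also counted in single cells. Each cell was thinned to 1000 UMIs, since depth differed between libraries, and cells with fewer were left out. A round spermatid then showed 3.62 (PBS, 65 cells), 3.43 (EXO, 400 cells) and 3.41 (dEXO, 632 cells) of the 10 genes on average, and a late spermatocyte 1.39 in both EXO (228 cells) and dEXO (428 cells). Genes of both waves were seen in 73.8%, 72.2% and 69.6% of round spermatids. In late spermatocytes both were seen in 13.2% (EXO) and 16.4% (dEXO) of cells, and first-wave genes alone in 58.8% and 48.4%. In stromal-like cells, which should lack these transcripts, both were seen in 0.68% and 3.03%, first-wave genes alone in 5.59% and 11.6%, and later genes alone in 7.71% and 12.1%. Median depth before thinning was 3943.5 and 5496 UMIs in late spermatocytes and 2386 and 2132 in stromal-like cells. The part of free RNA in the shares of late spermatocytes was not tested, and neither the shares with both nor their difference between the libraries is read as overlap of the waves. For a single gene, Acrv1 had a UMI in 58.5%, 57.5% and 58.9% of thinned round spermatids in PBS, EXO and dEXO, and Izumo1 in 13 of 65 PBS cells, 17.8% in EXO and 16.6% in dEXO. Before thinning the shares were 90.9%, 88.2% and 87.8% for Acrv1 and 77.3%, 61.4% and 56.0% for Izumo1. In thinned stromal-like cells they were 0.319%, 1.08% and 2.70% for Acrv1 and 0.0531%, 0.327% and 0.872% for Izumo1.

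Round spermatids themselves held shallow clusters in which the mix of acrosome transcripts was different. Cluster g0 had 15 PBS, 143 EXO and 219 dEXO cells, with a median of 3047, 1319 and 1312 UMIs, against 39332, 39302 and 30488 in the deep cluster g6. It also carried 9967 CPM of Malat1 over all libraries, against 434 CPM in g6. Acrv1 stood at 2164, 2184 and 2004 CPM in g0 of PBS, EXO and dEXO and at 520.5, 527 and 517 CPM in g6. Acrv1 was thus higher in g0 by 2.06, 2.05 and 1.95 on the log2 scale. Izumo1 was higher by 1.31, 1.98 and 1.31, and Dpy19l2 by 1.64, 1.36 and 1.31. In the other direction Zpbp2 was lower by 1.68, 1.62 and 1.52 and Spaca3 by 0.74, 1.10 and 1.03, so genes of both waves moved both ways. Spaca1 was higher in g0 of PBS (0.70, interval 0.45 to 0.94) but lower in EXO and dEXO (-0.28 in both).

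**Figure D3:**
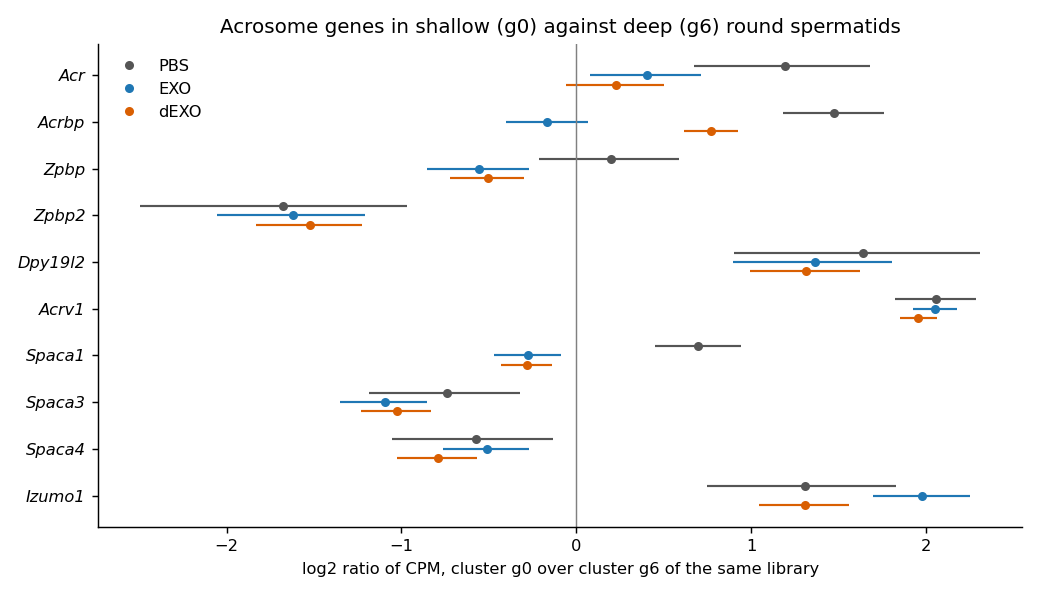
Log2 ratio of CPM of each acrosome gene in the shallow round spermatid cluster g0 over the deep cluster g6 of the same library (horizontal axis), with exact 95% intervals and 1 colour per library. Acrv1 sits near 2 in all 3 libraries (1.95 to 2.06) and Zpbp2 between -1.68 and -1.52.

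A second shallow cluster, g10, had 2 PBS, 78 EXO and 93 dEXO cells, with medians of 1500.5 and 1539 UMIs in EXO and dEXO. Its name rested on 3 of 12 raised round spermatid markers. There Dpy19l2 was higher than in g6 by 2.11 (EXO) and 1.19 (dEXO) on the log2 scale, and Acrv1 by 0.45 and 1.00. Spaca3 was lower by 2.49 and 1.95 and Spaca1 by 1.76 and 1.42. The part of depth in these differences was not tested.

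Between libraries, the acrosome genes of round spermatids differed by 0.50 or less on the log2 scale. None of the 10 was called, where a call needs a 2-fold difference with an interval that leaves out 0, in EXO against PBS (3.17% of 11994 genes tested were called), in dEXO against PBS (5.01% of 13152) or in dEXO against EXO (1.71% of 14268). Smaller differences had intervals that left out 0 for 6, 7 and 7 of the 10 genes, where 36.3%, 37.2% and 39.1% of all genes did. All genes were not matched to the 10 for counts, and higher counts give narrower intervals, so these shares are not read as a result. The 2 comparisons with PBS share the PBS library. The median of the 10 was -0.02, 0.00 and -0.06 on the log2 scale, beside 0.03, 0.10 and 0.08 over all genes tested.

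Among the smaller differences Izumo1 was the furthest from 0. At 174 CPM (163 to 186) in PBS, 129 (124 to 135) in EXO and 124 (119 to 128) in dEXO, it was lower by 0.43 (-0.54 to -0.32) in EXO than PBS and by 0.50 (-0.60 to -0.39) in dEXO than PBS. Spaca1, at 1213 CPM in PBS against 980 and 948, was lower by 0.31 and 0.36. Spaca4 was lower by 0.10 and 0.24. In the other direction Zpbp2 was 0.25 (EXO) and 0.27 (dEXO) higher than in PBS, Acrbp 0.31 and 0.15, Acr 0.23 and 0.04 (the latter interval -0.05 to 0.14), and Dpy19l2 0.11 (-0.06 to 0.27) and 0.33. Of the genes whose interval left out 0, those lower than in PBS were all of the later wave and those higher all of the first, in both comparisons. The libraries also drew their round spermatids from different clusters. PBS had 9, 21, 19, 15 and 2 cells in g3, g6, g9, g0 and g10, EXO 101, 87, 50, 143 and 78, and dEXO 213, 113, 105, 219 and 93. The part of this mix in the differences was not tested, and no round cluster had 50 PBS cells.

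EXO and dEXO could also be compared cluster by cluster. Within g3, g6 and g9 Izumo1 differed by -0.23, 0.12 and -0.22 (dEXO over EXO, log2), Spaca3 by -0.26, -0.18 and -0.16, and Spaca4 by -0.32, -0.22 and -0.15. Dpy19l2 differed by 0.16, 0.42 and 0.34. Acrbp was lower in dEXO in g3 and g6 (-0.10 and -0.38) and higher in g9 and g0 (0.32 and 0.55), so its difference over all round spermatids (-0.15) joined clusters of opposite sign.

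**Figure D4:**
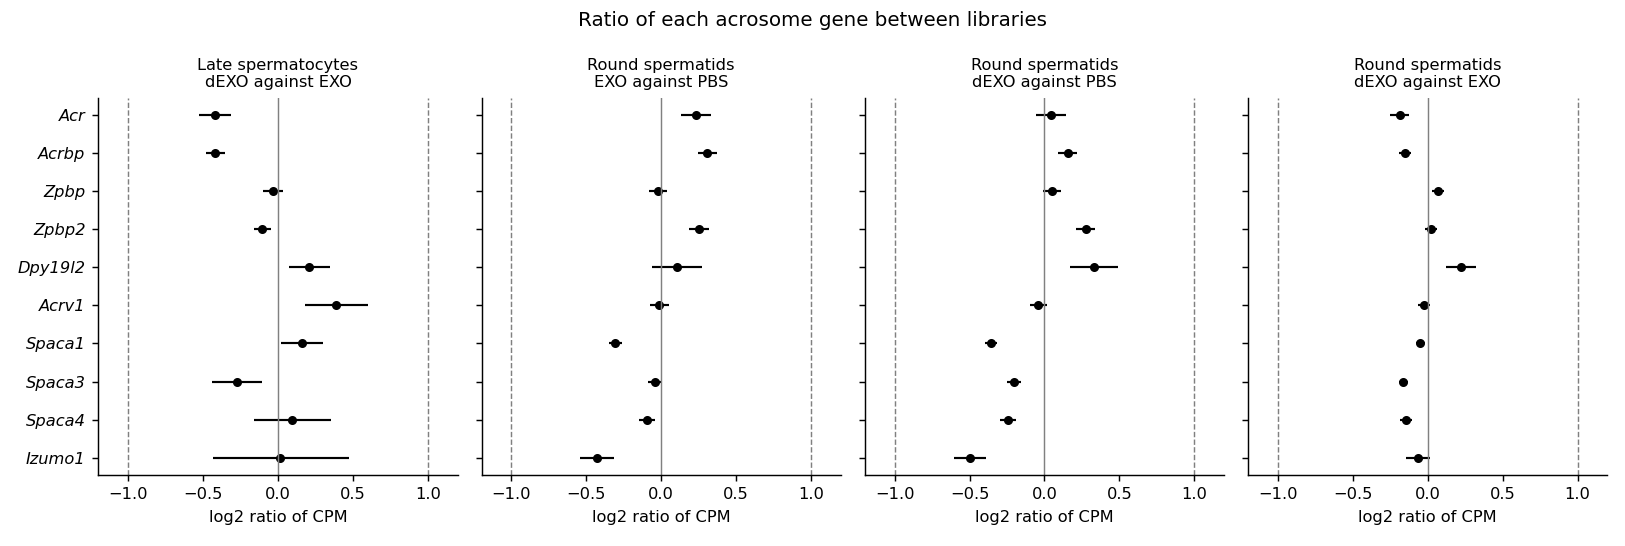
Log2 ratio of CPM of each acrosome gene between libraries (horizontal axis) in late spermatocytes (left) and round spermatids (the other panels), with exact 95% counting intervals; dashed lines mark 2-fold. No gene reaches a dashed line, and Izumo1 lies furthest out in both comparisons with PBS (-0.43 and -0.50).

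Late spermatocytes could be compared between dEXO and EXO. None of the 10 genes was called, where 1.87% of 11734 genes were, which for 10 genes is near that share. Intervals left out 0 for 7 of the 10, where 26.4% of genes did, again without a match for counts. Acr, at 222 CPM in EXO and 166 in dEXO, and Acrbp, at 680 and 509 CPM, were both lower in dEXO by 0.42 on the log2 scale (-0.53 to -0.32 and -0.48 to -0.36). In g7 they were lower by 0.71 and 0.79, and in g2 the ratios were -0.15 (-0.31 to 0.01) and -0.06 (-0.16 to 0.03), with intervals that included 0. Acrv1 was 0.39 higher in dEXO and Dpy19l2 0.21 higher, the latter by 0.66 in g7 and -0.01 in g2. Zpbp (-0.03, -0.10 to 0.04), Spaca4 (0.09, -0.16 to 0.35) and Izumo1 (0.01, -0.43 to 0.48) had intervals that included 0.

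The few UMIs of these genes in earlier germ cells stood within the range of cells outside the germ line or above it. Over the 10 genes, Leydig-like cells held 18.5 CPM in PBS, 44.8 in EXO and 93.5 in dEXO, stromal-like cells 45.3, 144 and 300, and T or NK-like cells 65.1, 157 and 297. In each of these classes the order was PBS, EXO, dEXO, the order of the libraries' own summed levels. Early spermatocytes (106 and 202 CPM in EXO and dEXO) and dEXO spermatogonia (158 CPM) lay inside the range of these somatic classes, EXO spermatogonia (162 CPM) just above it, and PBS spermatogonia (102 CPM) above it. First-wave genes gave 48.8%, 70.6% and 60.8% of the 10 genes' UMIs in spermatogonia of PBS, EXO and dEXO. They gave 50.2%, 49.2% and 52.5% in Leydig-like cells and 44.2%, 43.6% and 50.7% in stromal-like cells. Median depth was 23901, 11565 and 12945 UMIs in spermatogonia, 29900, 16633 and 13222.5 in Leydig-like cells and 4810, 2386 and 2132 in stromal-like cells. The part of free RNA in these stages was not tested, and no expression of the genes is read from them.

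**Figure D5:**
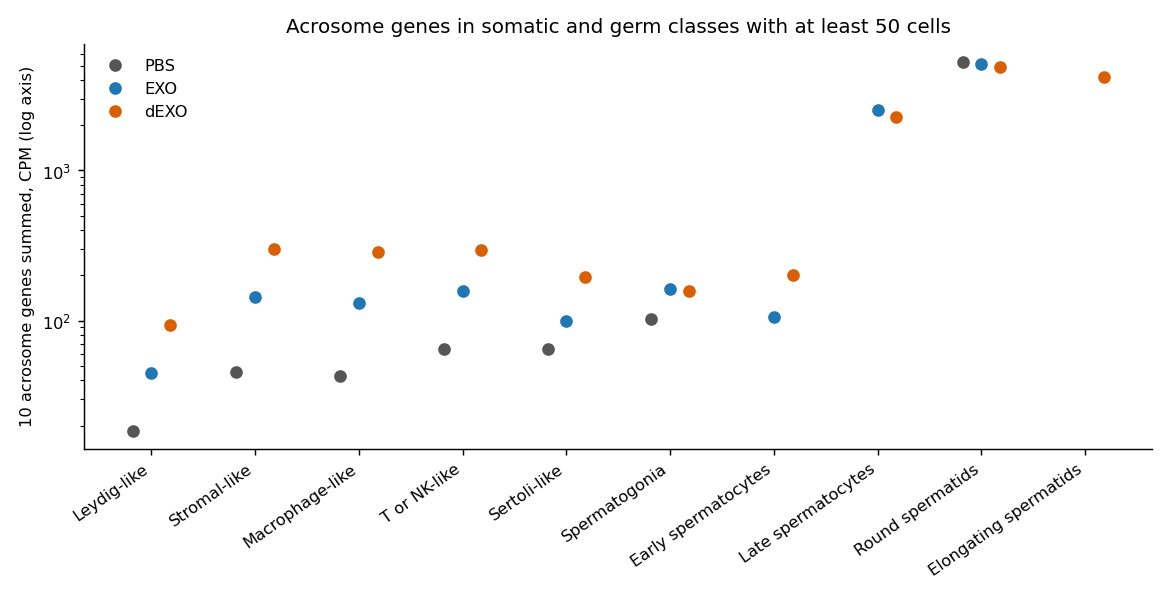
The 10 acrosome genes summed, in CPM on a log axis, in germ stages and in Leydig, stromal, macrophage, T or NK and Sertoli-like cells. There is 1 point per library with at least 50 cells of the class. Peritubular and unnamed cells are not drawn. The somatic classes drawn, spermatogonia and early spermatocytes lie between 18.5 and 300 CPM, and late spermatocytes and spermatids above 2000 CPM.

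Calls between libraries were made in spermatogonia and early spermatocytes. In EXO against PBS 3 of the 6 genes with enough UMIs were called higher (4.7% of 9881 genes were called higher, 5.53% in either direction): Acrbp at 36.1 against 14.1 CPM, Zpbp at 33.8 against 16.7 and Zpbp2 at 28.1 against 12.3. Spermatogonia included cluster g15, with 44 EXO and 3 PBS cells, in which the late spermatocyte gene Ldhc stood at 1491 CPM against 110 in g5. Without g15, an alternative chosen after seeing the data, none of the 10 was called in EXO against PBS. In dEXO against PBS 2 of 9 were called higher, Acr (7.72 against 2.54 CPM) and Acrbp (31.8 against 14.1), where 2.86% of genes were called higher and 3.21% in either direction; without g15 the count was 5. None of 9 was called in dEXO against EXO (3.29% of genes were), and 3 without g15. In early spermatocytes Spaca3 (63 against 19 UMIs) and Zpbp2 (48 against 8 UMIs) were called higher in dEXO than EXO, 2 of 5 tested, where 2.27% of genes were called higher and 2.43% in either direction. Levels of the genes in stromal-like cells of dEXO and EXO also stood apart, at 42.4 against 22.6 CPM for Spaca3 and 37.1 against 11.5 for Zpbp2.

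Spaca1 stood apart from the other 9 genes in 1 somatic class. In Sertoli-like cells, the nurse cells of the germ line, it stood at 35.2 CPM (25.9 to 46.9) in PBS, 36.9 (29.3 to 45.9) in EXO and 37.8 (32.4 to 43.9) in dEXO, while the other 9 genes summed to 29.2, 62.0 and 158 CPM there. Spaca1 thus gave 54.7%, 37.3% and 19.3% of the 10 genes' UMIs in Sertoli-like cells, against 23.0%, 19.1% and 16.1% in stromal-like cells and 20.4%, 15.4% and 13.3% in Leydig-like cells. Its level in stromal-like cells was 10.4, 27.6 and 48.3 CPM, so the level in Sertoli-like cells was above it in PBS, and the intervals of the 2 classes overlapped in EXO and dEXO. A UMI of Spaca1 was found in 24 of 80, 44 of 228 and 129 of 532 Sertoli-like cells. At 1000 UMIs per cell the shares were 5.63%, 5.45% and 4.85%, against 0.28%, 0.75% and 1.54% of Leydig-like cells and 1.33%, 3.12% and 5.73% of stromal-like cells. Median depth before thinning was 6857, 5261 and 3915 UMIs in Sertoli-like cells and 29900, 16633 and 13222.5 in Leydig-like cells.

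Of 41 other genes of the acrosome, all found in the files, 27 were highest in round or elongating spermatids by the mean of the 3 libraries, 8 in late spermatocytes, 6 in early spermatocytes and none in spermatogonia. Among the 18 genes of acrosome contents and surface, Crisp2, a cysteine-rich secretory protein, stood at a mean of 2616 CPM in late and 2510 in round spermatids, as in the first wave. Lyzl6, a lysozyme-like gene, stood at 24.9 and 616 CPM, as in the later wave. Of the 10 genes of gamete fusion, 9 were highest in spermatids, among them the Izumo1 relatives Izumo2 (6.58 CPM in late and 440 in round spermatids) and Izumo3 (30.7 and 373 CPM). Izumo4 was highest in late spermatocytes (422 and 366 CPM). Of the 13 genes of biogenesis and anchoring, 5 were highest in early spermatocytes, namely the Golgi and vesicle traffic genes Gopc, Pick1, Vps54 and Smap2 and the kinase subunit Csnk2a2.

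Between libraries the other acrosome genes gave few calls in round spermatids and late spermatocytes, and more in spermatogonia and early spermatocytes, as given below. In round spermatids 2 of 39 tested were called higher and 1 lower in EXO than PBS, 1 of 39 higher in dEXO than PBS, and 1 of 41 lower in dEXO than EXO, with medians of -0.14, -0.11 and 0.05 on the log2 scale. Of all genes tested, 2.24% were called higher and 0.925% lower in the first of these comparisons, 4.29% higher in the next and 0.392% lower in the last. Prss37, a protease-like gene of elongating spermatids, had 60 UMIs in EXO (3.72 CPM), none in PBS and 28 in dEXO. With a floor of 3 counts in place of none, it was 6.61-fold higher in EXO than PBS. The interval of that ratio began at 2.38 on the log2 scale. Tmem81, a gamete fusion gene, stood at 56.4 CPM in PBS, 27.1 in EXO and 34.3 in dEXO, lower by 1.06 in EXO (called) and 0.72 in dEXO. Fimp, listed in the files as 4930451I11Rik, was lower than in PBS by 0.42 in EXO and 0.55 in dEXO, Actl7a by 0.42 in EXO and Ccin by 0.63 in dEXO. Spink2, a protease inhibitor, was 0.39 higher in EXO than PBS, and Tex101 0.69 higher in EXO and 0.81 in dEXO. Gopc (1.71, called, from 69 and 5 UMIs) and Spata16 (0.39) were higher in dEXO than PBS. In dEXO against EXO, Prss21 (0.45), Tmf1 (0.28) and Dcst1 (0.32) were higher, and Prss37 (-1.58, called), Spink2 (-0.21) and Lyzl6 (-0.22) lower.

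In late spermatocytes 1 of 36 was called higher in dEXO than EXO and none lower, where 1.59% of all genes were called higher, and the median was 0.01. The call was Cylc1, a cylicin of the head cytoskeleton, at 15.1 against 6.34 CPM. Prss21 (0.36) and Tex101 (0.28) were higher without a call, and Spink2 (-0.18), Fam209 (-0.29) and Spaca7 (-0.32) lower. In spermatogonia 7 of 19 were called higher in EXO than PBS, where 4.7% of all genes were, among them Adam3 (2.51), Spink2 (2.01) and Izumo4 (2.03), and 6 of 22 in dEXO than PBS, where 2.86% of all genes were, among them Adam3 (2.41), Crisp2 (1.17) and Spata16 (13.3 against 4.72 CPM), while Tmf1 was lower by 0.22 without a call. In Leydig-like cells of PBS, EXO and dEXO, Spink2 stood at 3.28, 10.5 and 26.3 CPM and Crisp2 at 6.93, 16.9 and 46.7 CPM, so both also stood higher outside the germ line in EXO and dEXO than in PBS. Izumo4 stood at 26.6, 25.5 and 33.9 CPM there. These spermatogonia include the g15 cells described above. The part of either in the counts was not tested. In dEXO against EXO 1 of 23 was called higher, where 1.0% of all genes were, and it was Spaca7 (1.03). Lyzl6 (0.89) and Fam209 (0.61) were higher without a call, and Spink2 (-0.99), Tex101 (-0.45) and Izumo4 (-0.74) lower. In early spermatocytes 5 of 18 were called higher in dEXO than EXO, where 2.27% of all genes were, among them Spaca7 (2.32), Crisp2 (1.47) and Adam3 (1.55), and Smap2 was lower by 0.38. In Leydig-like cells Spaca7 stood at 4.26 and 8.05 CPM in EXO and dEXO, Crisp2 at 16.9 and 46.7 and Adam3 at 5.93 and 15.1, and the part of this rise in the calls was not tested.

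The 5 genes outside these lists whose profile was most like the mean of the 10, by Pearson correlation of log2(CPM + 10) over 28 profiles of library and class among 13054 candidates, were Nme5, Ankrd7, Lrrc43, Lkaaear1 and Ankrd60, each with r = 0.99. The profiles share libraries and span somatic and germ classes, so this is a description.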

How the data were processed

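The authors deposited raw UMI counts per gene and barcode from 10x 3' libraries. Per the file headers, the software behind these counts was Cell Ranger 5.0.1. The submitters' processing notes also name Seurat and GRCm38, with no role for Seurat. The tissue is testis per the labels, although their extraction protocol speaks of aorta.

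Barcodes entered at 500 or more UMIs, 300 or more genes and no more than 20% mitochondrial UMIs. Scrublet (scanpy 1.11.5) called 4 PBS, 2 EXO and 172 dEXO doublets, against 222, 778 and 665 expected from loading. The caller thus failed for PBS and EXO, and doublets remained. Germ clusters were made with 2000 variable genes, 30 components, 15 neighbours and Leiden (leidenalg 0.10.2) at resolution 1, without batch correction. A name needed 3 raised markers and the highest mean score of its class. Clusters g16 and g17 mixed germ with Sertoli or Leydig markers and stayed unnamed.

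For each class of a library the counts were added up, and CPM carry exact Poisson intervals. Log2 ratios carry exact conditional binomial intervals and shares exact Clopper-Pearson intervals, at 95%. A comparison needed 50 cells in both libraries and 50 UMIs of the gene over both. The ratio code was tested on simulated data. All 10 genes are named. Of the other acrosome list, the 3 highest and 3 lowest by the interval bound nearest 0, where it left out 0, are named in each stage and pair, along with any gene highest in spermatogonia, and then the 5 most alike genes. Examples for the stage profiles of that list were chosen after values were seen. The members, lists and markers were chosen with earlier results of these data known. The versions were scipy 1.17.1, numpy 2.4.6 and Python 3.11.15.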

Additional observations from a re-analysis of the deposited data

How the results depend on the processing

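In round spermatids no member was called in any pair under 11 alternatives against PBS (the others left under 50 PBS cells) or 15 for dEXO against EXO. The 5 members at least 2-fold lower in late than in round spermatids numbered 5 under all 12 alternatives in EXO and in dEXO. The planned depth rule and the removal of g15 kept the same late spermatocytes and round spermatids, so they could change neither result. The minimum of 20 UMIs could not change the first, since all 10 members were already tested. Members highest in spermatids numbered 7 to 10 under 14. In late spermatocytes dEXO against EXO gave 1 lower with at most 10% mitochondrial UMIs and 1 higher with each cell counted equally, in place of 0. Spermatogonia were not stable. EXO against PBS gave 9 called higher with the acrosome genes kept for clustering, at resolution 2 and with no doublet removed, 7 with at most 10% mitochondrial UMIs, and 0 at resolution 0.5, with libraries clustered alone, with the highest doublet scores removed, from 1000 UMIs and without g15, in place of 3. In the same settings and order dEXO against PBS gave 6, 6, 7, 6, 5, 6, 5, 8 and 5, and 1 without shallow clusters, 5 at 1.5-fold and 7 with cells counted equally, in place of 2. There dEXO against EXO gave 2 (resolution 0.5), 3 (alone), 2 (doublet scores), 6 (1000 UMIs), 3 (without g15), 2 (1.5-fold) and 1 (cells equal), in place of 0. In early spermatocytes dEXO against EXO gave 1 (resolution 2, no doublet removed, without shallow clusters, cells equal), 0 (10% mitochondrial) and 4 (from 20 UMIs), in place of 2. Zpbp2 in spermatogonia, EXO against PBS, was -0.16 with cells counted equally. For these the cause was not tested. The removal of shallow clusters (median under 2000 UMIs) and of g15 were chosen after seeing the data; no cluster met the planned depth rule. No paired analysis was possible because each group has 1 library.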

Other observations

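A germ cluster left unnamed, g16 (1 PBS, 10 EXO and 34 dEXO cells), carried the Sertoli gene Cst12 at 4013 CPM in EXO and 2926 in dEXO together with Prm1 at 10401 and 1775 CPM. The acrosome genes in it had the first-wave mix, with Zpbp2 at 430 and 377 CPM and Izumo1 at 33.9 and 7.17 CPM (3 UMIs each). Another unnamed cluster, g17 (4, 16 and 21 cells), held Insl3, a Leydig cell hormone gene, at 11313, 19360 and 9366 CPM in PBS, EXO and dEXO beside Spaca1 at 699, 412 and 425 CPM. Whether these are cells captured together was not tested.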
